A study of Mus musculus with 4 samples.

Results

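The 10 immediate early genes *Fos*, *Fosb*, *Jun*, *Junb*, *Egr1*, *Egr2*, *Ier2*, *Atf3*, *Nr4a1* and *Dusp1* were examined in cochlear ducts of E14.5 mouse embryos, among 29924 gene names on the array. They were taken by symbol from the gene spots of the array files. Each was represented by 1 probe in 4 spots, and each probe was well above background in 8 of 8 pools. Total RNA of NMRI embryos was measured on 4 two-colour arrays, each of which compared 1 pool of *Sox2-Tbx2LOF* ducts with 1 pool of control ducts. Arrays 1 and 2 held female pools and arrays 3 and 4 male pools, and the dyes were swapped within each sex, so that Cy5 marked the mutant pool on arrays 1 and 3 and the control pool on arrays 2 and 4. Mutant embryos were Sox2(creERT2);Tbx2(fl/fl) and control embryos Tbx2(fl/n.d.), where the labels leave the second *Tbx2* allele undetermined and the study's methods describe the controls as cre-negative. Both genotypes came from dams given 4 mg tamoxifen by mouth at E12.5, so exposure to tamoxifen was shared. CreERT2 sits at the *Sox2* locus, recombination was therefore limited to *Sox2*-expressing cells, and the pools combined ducts of several embryos from which the spiral ganglion had been removed.

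Immediate early genes are transcribed within minutes of a stimulus, without new protein synthesis, from promoters that are already loaded with factors such as SRF and CREB. FOS and FOSB pair with JUN or JUNB to form the transcription factor AP-1, EGR1 and EGR2 are zinc finger factors, ATF3 is a bZIP factor, NR4A1 is an orphan nuclear receptor, DUSP1 is a phosphatase that switches off MAP kinases, and IER2 is a nuclear protein of the early response. Their transcripts also rise when tissue is dissociated or handled before it is frozen, and they are therefore used to judge how alike samples were treated. Several have further roles in development, *Egr2* among them as a regulator of Schwann cell myelination.

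RefSeq promoter windows (GRCm38.p6, the 250 bases before a transcript start) were found for 8 of the 10 genes, and *Ier2* and *Egr1* are named only. The windows of the 5 genes on which the results below turn follow, 5′ to 3′ on the gene's strand, with the core of the cAMP response element and the CArG box bound by SRF in capitals. The third of the 5 windows of *Egr2* is shown.
Fos, chr12:85473640-85473889, plus strand: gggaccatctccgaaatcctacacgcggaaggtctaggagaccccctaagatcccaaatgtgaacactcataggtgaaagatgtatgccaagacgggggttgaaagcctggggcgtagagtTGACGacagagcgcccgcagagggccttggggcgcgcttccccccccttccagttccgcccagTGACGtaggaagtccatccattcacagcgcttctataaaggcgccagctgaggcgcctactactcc
Fosb, chr7:19310046-19310295, minus strand: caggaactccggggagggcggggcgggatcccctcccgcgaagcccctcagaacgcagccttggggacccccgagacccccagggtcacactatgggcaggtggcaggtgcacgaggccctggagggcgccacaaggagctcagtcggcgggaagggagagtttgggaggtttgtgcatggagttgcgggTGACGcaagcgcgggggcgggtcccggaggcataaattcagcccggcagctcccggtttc
Egr2, chr10:67537619-67537868, plus strand: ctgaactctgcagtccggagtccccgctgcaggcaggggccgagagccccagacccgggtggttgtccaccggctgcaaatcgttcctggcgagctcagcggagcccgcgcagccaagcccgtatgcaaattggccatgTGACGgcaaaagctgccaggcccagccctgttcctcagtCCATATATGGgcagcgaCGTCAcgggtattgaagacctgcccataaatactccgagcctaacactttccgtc
Nr4a1, chr15:101266596-101266845, plus strand: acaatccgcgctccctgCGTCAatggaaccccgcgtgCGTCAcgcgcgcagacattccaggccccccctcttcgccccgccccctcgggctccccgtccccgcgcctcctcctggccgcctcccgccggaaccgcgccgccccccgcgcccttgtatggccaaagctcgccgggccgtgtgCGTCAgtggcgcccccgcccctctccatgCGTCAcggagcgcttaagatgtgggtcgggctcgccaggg
Dusp1, chr17:26508473-26508722, minus strand: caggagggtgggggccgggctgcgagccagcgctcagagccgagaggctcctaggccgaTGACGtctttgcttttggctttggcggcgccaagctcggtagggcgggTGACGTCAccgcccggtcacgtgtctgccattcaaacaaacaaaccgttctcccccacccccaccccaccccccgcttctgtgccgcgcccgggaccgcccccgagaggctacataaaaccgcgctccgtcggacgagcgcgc

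The letters TGACG, searched on both strands, occurred in 7 of the 8 genes and, counted in the same way over any window of a gene, in 19.8% of 27025 genes. By window it occurred in 9 of the 12 windows of the 8 genes and in 17.8% of 32851 windows of this length, and 5 of the 12 belong to *Egr2* and partly overlap. The longer palindrome TGACGTCA, which contains the core, occurred in *Dusp1* and in 1.77% of genes. A CArG box, searched by its name pattern, occurred in *Egr2* and in 1.62% of genes. The EGR letters GCGNGGGCG were present in *Fosb* and *Nr4a1* (5.33% of genes) and TATAAA in *Fos* (14.3%). The AP-1 letters TGANTCA were in none of the 8 genes and in 7.82% of all genes. These are matches of letters and were not tested as sites. Bases further upstream or after the start were not searched. A missing match therefore does not mean that a gene lacks such a site.

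Array quality was alike. Between 69.2% and 72.0% of probes were well above background in each channel, between 8.29% and 8.56% of spots carried an outlier flag, and no gene spot was saturated. Arrays of the same dye orientation resembled each other in their mutant over control log2 ratios (Pearson r across genes 0.68 and 0.62). Arrays of opposite orientation did not (r between -0.10 and 0.07), so a dye term was fitted. *Tbx2*, the targeted gene, had a log2 ratio of -0.12 (limma SE 0.036, adjusted p = 0.124) and was lower in the mutant on 4 of 4 arrays. Whether its probe lies in the deleted part is not given in the sources used here.

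The first question was whether mutant and control ducts differed in these transcripts. *Nr4a1*, *Egr2* and *Dusp1* fell in the mutant, by 1.29-, 1.33- and 1.22-fold, and *Fos* was 2.27-fold lower with an adjusted p above the threshold. *Fosb*, *Egr1*, *Jun*, *Junb*, *Ier2* and *Atf3* did not pass the test. In all, 3 of the 10 genes had an adjusted p below 0.05 in limma's test over 21042 genes, against 5.18% of all genes tested, and all 3 were lower, against 2.92%. None rose, against 2.26%. None also reached the minimum fold of 1.5, a combination found for 0.442% of all genes. The median log2 ratio of the 10 genes was -0.30 and that of all genes 0.0024. That median rested on array 1, without which it was 0.0078. In bulk ducts, fewer cells expressing a gene and less RNA per cell cannot be told apart.

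**Figure D1:**
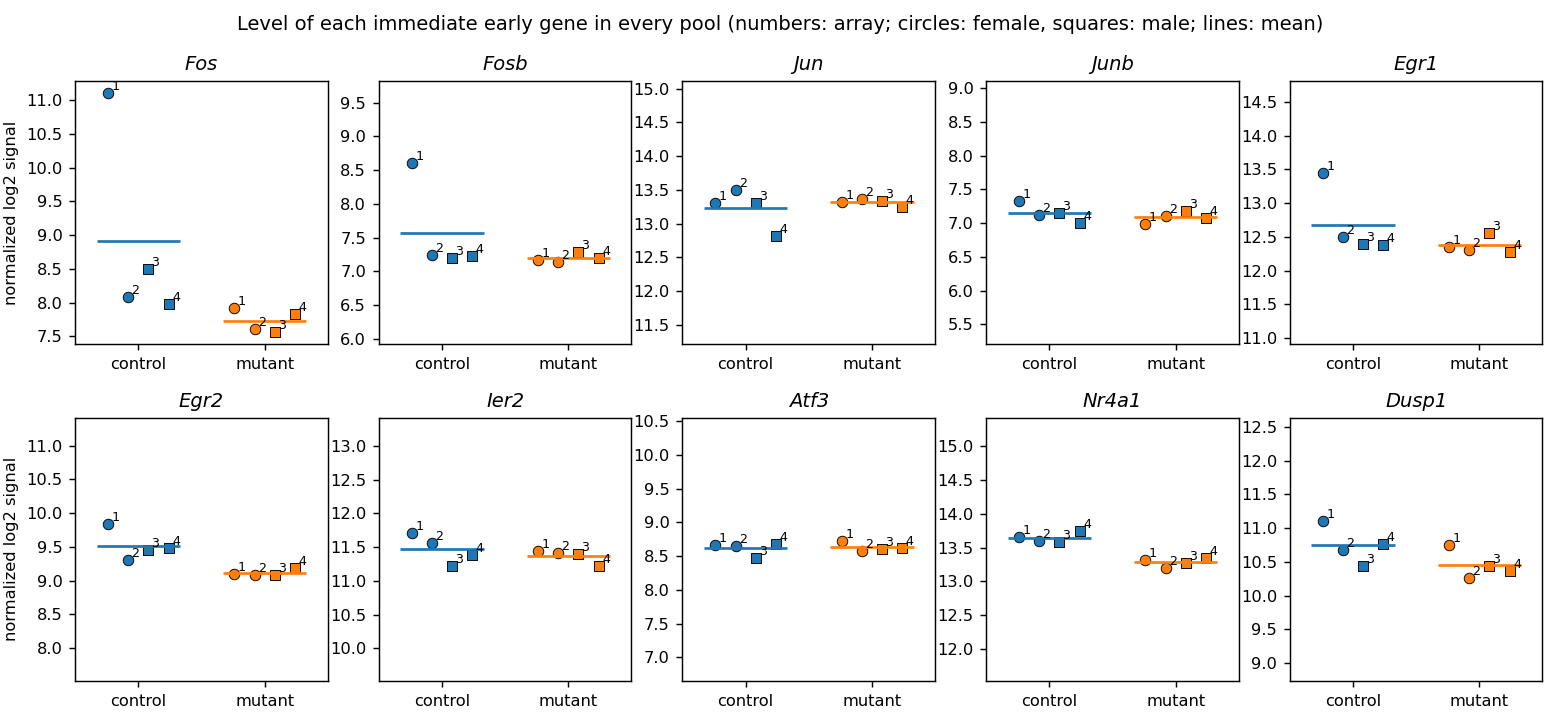
Normalized log2 signal of each gene in every pool, with the array number beside each point, circles for female and squares for male pools, and lines at the mean of the 4 pools. Each panel spans the same range on the log2 scale, and control pool 1 stands above the other pools for *Fos*, *Fosb* and *Egr1*.

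*Nr4a1* differed most evenly. Its probe (mm9, chr15:101105071-101105130, plus strand) read 13.66, 13.60, 13.58 and 13.75 on the normalized log2 scale in control pools 1 to 4 and 13.31, 13.21, 13.28 and 13.34 in mutant pools 1 to 4. All control pools lay above all mutant pools, an arrangement found for 3 of the 10 genes and for 2.59% of all genes. The opposite arrangement, found for 1.75% of all genes, occurred for none of the 10. The log2 ratios on arrays 1 to 4 were -0.35, -0.40, -0.30 and -0.41, with a mean of -0.36 (SD 0.050, n = 4; limma SE 0.034; limma adjusted p = 0.000958). It was lower on 4 of 4 arrays, as were 3 of the 10 genes and 9.31% of all genes. Leaving out any 1 array kept the fitted ratio between -0.38 and -0.35, and it passed each time. In separate channels without control pool 1, which gives up the pairing within arrays, the ratio was -0.34 with an adjusted p of 0.0989.

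*Egr2* (mm9, chr10:67004798-67004857, plus strand) read 9.84, 9.30, 9.45 and 9.48 in the control pools and 9.10, 9.09, 9.08 and 9.18 in the mutant pools. The groups did not overlap, and control pool 1 was the highest. The log2 ratios were -0.75, -0.22, -0.37 and -0.30, with a mean of -0.41 (SD 0.23, n = 4; limma SE 0.060; limma adjusted p = 0.00949). Without array 1 the ratio was -0.31, which still passed. In separate channels without the pairing it missed the threshold with all pools (-0.41, limma adjusted p = 0.152). Without control pool 1 as well, it was -0.29 with an adjusted p of 0.122. It also missed the threshold without a dye term (adjusted p = 0.11).

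*Dusp1* (mm9, chromosome 17) read 11.11, 10.68, 10.44 and 10.77 in the control pools and 10.75, 10.26, 10.45 and 10.37 in the mutant pools. The groups overlapped, and the gene was lower on 3 of 4 arrays. The log2 ratios were -0.36, -0.42, 0.011 and -0.40, with a mean of -0.29 (SD 0.20, n = 4; limma SE 0.058; limma adjusted p = 0.0322). Without array 1 the ratio was -0.20 with an adjusted p of 0.0876, in a fit in which fewer genes passed over the whole array as well (411 in place of 1091). The call was also lost in 6 of 13 other alternatives.

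*Fos* had the largest mean difference and the largest spread. Its probe (mm9, chr12:86817900-86817959, plus strand) read 11.10, 8.09, 8.50 and 7.98 in the control pools and 7.93, 7.61, 7.57 and 7.83 in the mutant pools. The groups did not overlap, but the lowest control pool exceeded the highest mutant pool by no more than 0.054. The log2 ratios were -3.17, -0.47, -0.94 and -0.15, with a mean of -1.18 (SD 1.36, n = 4; limma SE 0.29; limma adjusted p = 0.0626). Without array 1 the ratio was -0.62 and passed (adjusted p = 0.0259), and without array 3 it was -1.74 (adjusted p = 0.00258). Without array 2 or array 4 it did not pass (limma adjusted p = 0.0645 and 0.0543). Nor did *Fos* pass with robust variance estimates (limma adjusted p = 0.415), without a dye term (0.417) or in separate channels without the pairing (0.575). With one array left out, the array that shares no dye orientation with another is fitted exactly, so its own deviation does not enter the error.

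*Fosb* (mm9, chr7:19888168-19888227, minus strand) read 8.60, 7.25, 7.20 and 7.23 in the control pools and 7.17, 7.14, 7.29 and 7.20 in the mutant pools. Apart from control pool 1, the 2 groups lay within the same range. The mean log2 ratio was -0.37 (SD 0.71, n = 4; limma adjusted p = 0.344), and without array 1 it was 0.0058.

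*Egr1* read 13.45, 12.5003, 12.40 and 12.37 in the control pools and 12.35, 12.31, 12.56 and 12.27 in the mutant pools. Again 1 control pool was high and the rest overlapped. The mean log2 ratio was -0.31 (SD 0.55, n = 4; limma adjusted p = 0.358), and without array 1 it was 0.011.

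*Jun* read 13.31, 13.50, 13.31 and 12.82 in the control pools and 13.32, 13.37, 13.33 and 13.24 in the mutant pools. Here control pool 4 was the low one, and the ratio of array 4 was 0.42 while those of the other arrays lay between -0.14 and 0.021. The mean log2 ratio was 0.080 (limma adjusted p = 0.638), it was -0.060 without array 4, and it passed without array 2 at 0.22 (adjusted p = 0.0282). *Junb* (mean log2 ratio -0.061), *Ier2* (-0.10) and *Atf3* (0.016) did not pass limma's test (adjusted p = 0.621, 0.454 and 0.845). Their levels overlapped between control and mutant pools. *Junb* was dim like *Fosb*, with mean Cy3 signals between 73.8 and 94.3. The ratios of *Junb* and *Ier2* were 0.028 and 0.0099 without array 1.

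**Figure D2:**
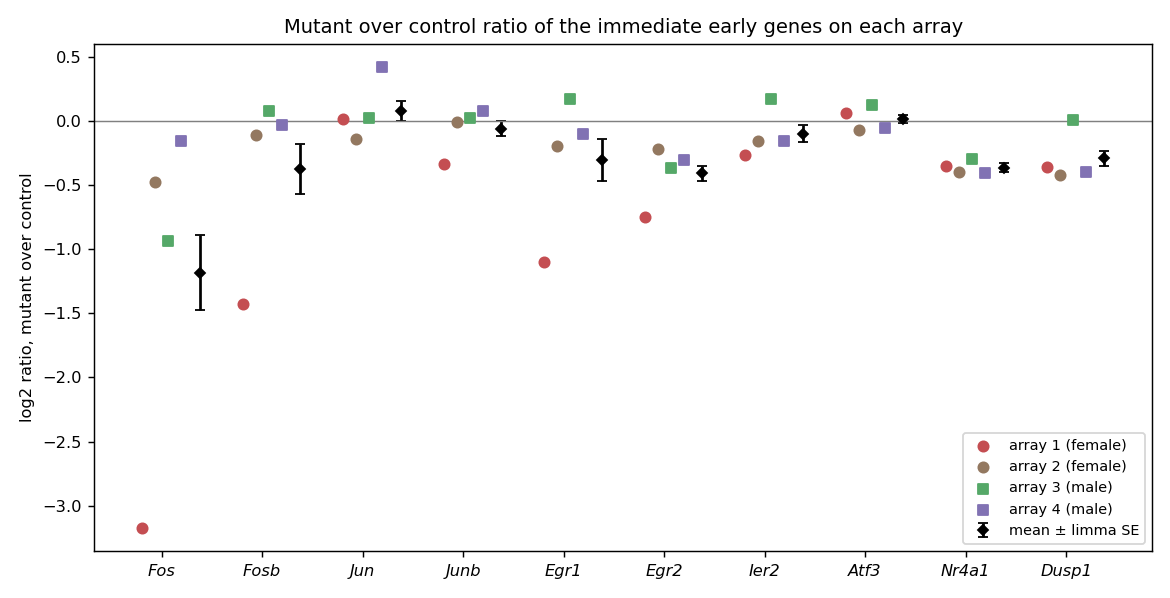
Log2 ratio of mutant over control on each of the 4 arrays (coloured points, circles female and squares male) and the mean with its limma SE (black diamonds). The ratio furthest from 0 was that of array 1 for 6 of the 10 genes, whereas the 4 ratios of *Nr4a1* lie between -0.41 and -0.30.

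**Figure D3:**
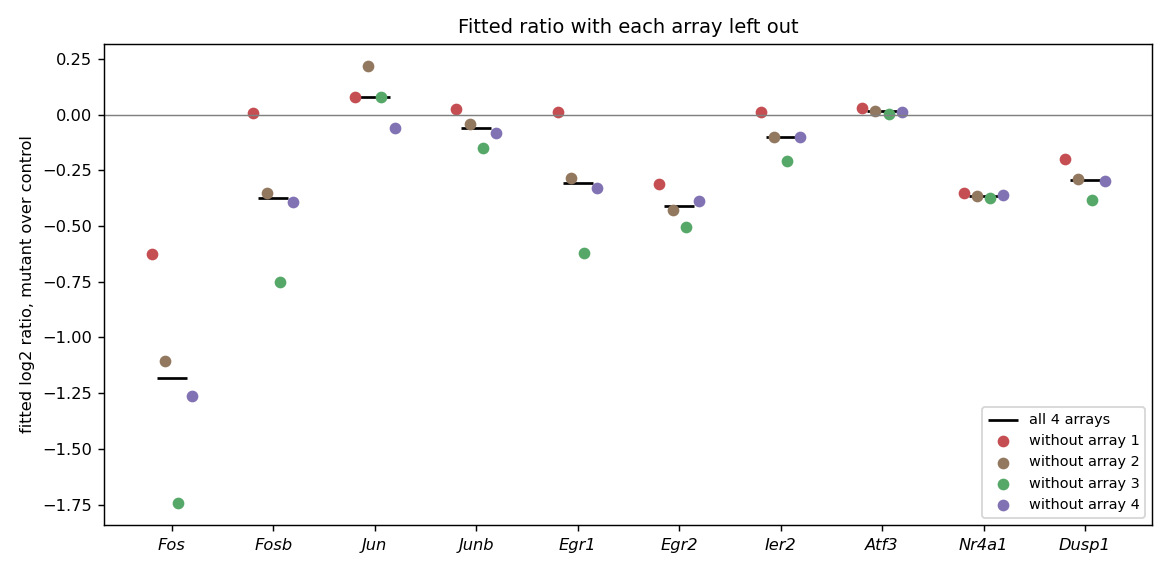
Fitted log2 ratio of mutant over control with all 4 arrays (black bars) and with each array left out (coloured points). *Fosb*, *Junb*, *Egr1* and *Ier2* change sign without array 1 and *Jun* without array 4, the ratio of *Egr2* spans -0.50 to -0.31, and that of *Nr4a1* stays between -0.38 and -0.35.

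The second question was how alike the pools were within a genotype. Control pool 1, a female pool read in Cy3, held more *Fos*, *Fosb*, *Egr1* and *Dusp1* RNA than any other pool read in that dye. The excess over the highest of the other 3 Cy3 pools was 6.04-fold for *Fos*, 2.63-fold for *Fosb*, 2.07-fold for *Egr1* and 1.60-fold for *Dusp1*. Among 21042 genes these were the first, the second, the third and the fifth largest excess in that pool, and E430022K19Rik was the fourth at 1.67-fold. Thus 4 of the 10 genes exceeded 1.5-fold there, against 0.0238% of all genes (5 genes). *Egr2* followed at rank 44 (1.31-fold) and *Ier2* at rank 127 (1.24-fold). Control pool 1 was the highest Cy3 pool for 9 of the 10 genes, *Jun* being the exception, and for 27.3% of all genes. In the other 7 pools, between 2 and 14 genes exceeded 1.5-fold and none of the 10 was among them. In the downward direction control pool 4 stood apart, with 74 genes at least 1.5-fold below the lowest of the other Cy5 pools, against 0 to 19 such genes in the other pools. *Jun*, at 12.82 there and 13.32 to 13.50 in the other Cy5 pools, was low by less than that.

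The raw spots showed the same. The mean brightness of the *Fos* probe before background correction was 1738 in control pool 1, with its 4 spots between 1683 and 1809, and 111, 245 and 147 in the other Cy3 pools (mutant pool 2, control pool 3 and mutant pool 4). The 4 spots of the pool therefore agreed closely. On the same array, *Fos* in mutant pool 1 read 7.93, within 0.36 of the lowest mutant pool. Each pool was labelled and hybridised once, so the pool, its labelling and its channel cannot be told apart.

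**Figure D4:**
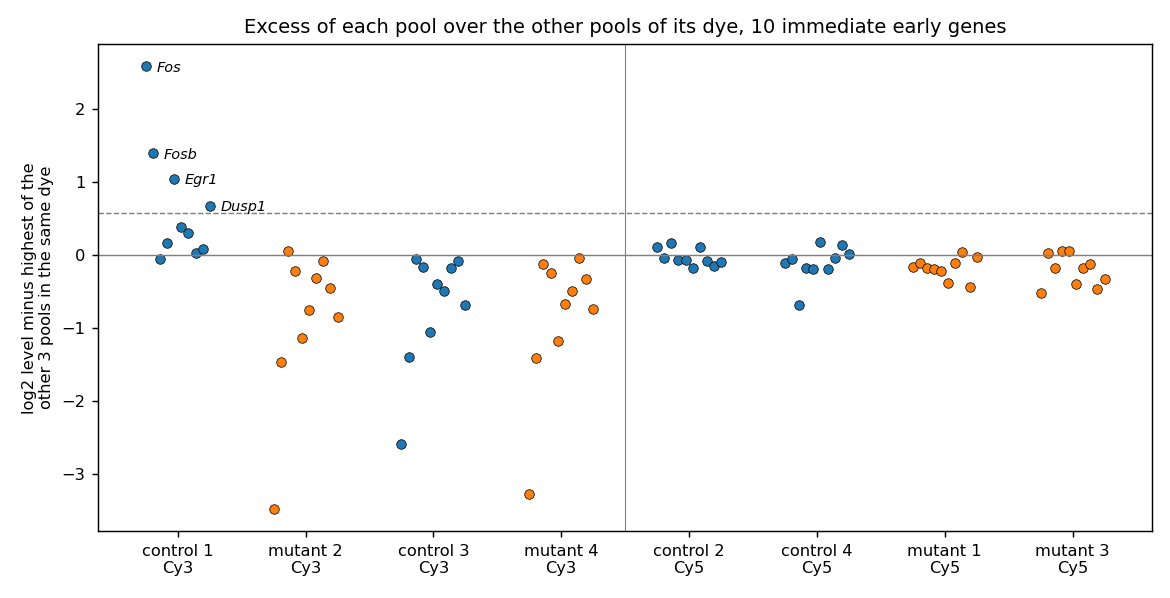
Normalized log2 level of each of the 10 genes in a pool minus the highest of the other 3 pools read in the same dye (Cy3 left, Cy5 right), with a dashed line at 1.5-fold. *Fos*, *Fosb*, *Egr1* and *Dusp1* of control pool 1 are the points above that line.

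The spread differed among the 10 genes. The control pools ranged over 3.12 log2 units for *Fos*, 1.40 for *Fosb* and 1.07 for *Egr1*, and over 0.52, 0.045 and 0.13 without control pool 1. In the mutant pools the range was under 0.5 for 10 of 10 genes. After centring within each dye, the SD over control pools was 1.18 for *Fos*, 0.61 for *Fosb* and 0.47 for *Egr1*. Among genes of like brightness these SDs stood at percentiles 100, 99.8 and 99.8. On the same measure the SD over mutant pools was 0.54 for *Fos*, 0.22 for *Fosb* and 0.21 for *Egr1*, at percentiles 99.7, 96.3 and 95.8. The mean subtracted from mutant pools 2 and 4 there includes control pool 1, which was read in the same dye. These values and percentiles therefore do not describe the spread among mutant pools alone. Without centring, the SDs of *Fos*, *Fosb* and *Egr1* were 0.17, 0.062 and 0.13 over mutant pools and 1.47, 0.69 and 0.51 over control pools. Over control pools, the dye-centred SD was 0.068 for *Nr4a1* and 0.076 for *Atf3*, at percentiles 47.2 and 38.7. Without scaling between arrays the SD of *Nr4a1* over control pools was 0.157.

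Across the 8 pools, the dye-centred mean of the 10 genes was most closely followed, among the 1112 genes outside the set whose SD over the pools was at least 0.2, by E430022K19Rik (Pearson r 0.93), *Gm6653* (0.89), *Rnf165* (0.89), *Ccl3* (0.88) and *Spp1* (0.87). These correlations are descriptions over 8 pools that share arrays and dyes, they hold within that limit on the SD, and they lean on control pool 1: without array 1, that of *Spp1* was 0.60. E430022K19Rik kept an r of 0.95 there. Within the set, *Fos* (0.99), *Fosb* (0.97), *Egr1* (0.97) and *Dusp1* (0.94) lay close to the mean of which they are part, and *Jun* (0.029) did not.

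The third question was whether the sexes or the dyes differed. The mutant over control log2 ratio of *Fos* was -1.82 in females and -0.54 in males, that of *Fosb* -0.77 and 0.025, and that of *Egr1* -0.65 and 0.034. None of the 10 passed limma's test of this difference (adjusted p = 1.00, with 0% of all genes passing), and 5 of 10 had an unadjusted p below 0.05 against 2.65% of all genes. The female ratios include array 1. For *Nr4a1* the ratios were -0.37 and -0.35. The level did not pass between female and male pools for any of the 10 (adjusted p = 1.00, 0 with an unadjusted p below 0.05, against 3.33% of all genes), where 0.0618% of all genes passed. No dye term passed either, the lowest adjusted p being 0.0869 for *Fos*, against 13.3% of all genes, and 2 of the 10 had an unadjusted p below 0.05, against 31.3% of all genes.

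Related genes were counted from lists. A further immediate early list held 46 genes, of which *Fosl1*, *Egr3*, *Egr4*, *Nr4a3* and *Dusp5* were too dim to be tested. Of the 41 tested genes, 3 rose and 4 fell (17.1%, against 5.18% of all genes), with a median log2 ratio of -0.010. The number that passed was 2, 9, 2 and 3 without arrays 1, 2, 3 and 4, where 411, 1278, 445 and 695 of all 21042 genes passed. It was 3 with Agilent's processed signals or without a dye term, and 1 in separate channels without the pairing. *Ctgf*, a matricellular target of YAP and SRF signalling, rose by 0.63 on the log2 scale (limma SE 0.059, adjusted p = 0.000933) and passed the fold minimum too. It passed in 4 of 4 fits with an array left out. *Dusp4*, another MAP kinase phosphatase, fell by 0.33 (adjusted p = 0.00716) and *Cyr61*, a relative of *Ctgf*, fell by 0.31 (adjusted p = 0.0335), and each passed in 2 of those 4 fits. None of the 41 exceeded 1.5-fold in control pool 1, where 0.0238% of all genes did. Of 22 upstream kinases and factors, such as SRF, CREB and the MAP kinases, none passed in limma's test, with a median of -0.0053.

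Counts in the stress lists were small, where 5.18% of all genes passed. Of 12 heat shock genes, 1 fell (*Hsp90aa1*, a chaperone, by 0.19, adjusted p = 0.0389), a call lost without array 1, 3 or 4. Of 14 genes of hypoxia and glycolysis, 1 rose (*Ddit4*, an inhibitor of mTORC1, log2 ratio 0.15, adjusted p = 0.0481), a call lost whichever array was left out. Of 11 genes of the integrated stress response none passed. None of these genes exceeded 1.5-fold in control pool 1, where 0.0238% of all genes did, so a count of 0 in lists of this size sets them apart from no other genes. The control pools lay between 14.51 and 14.59 in the mean level of the heat shock list and the mutant pools between 14.501 and 14.58.

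**Figure D5:**
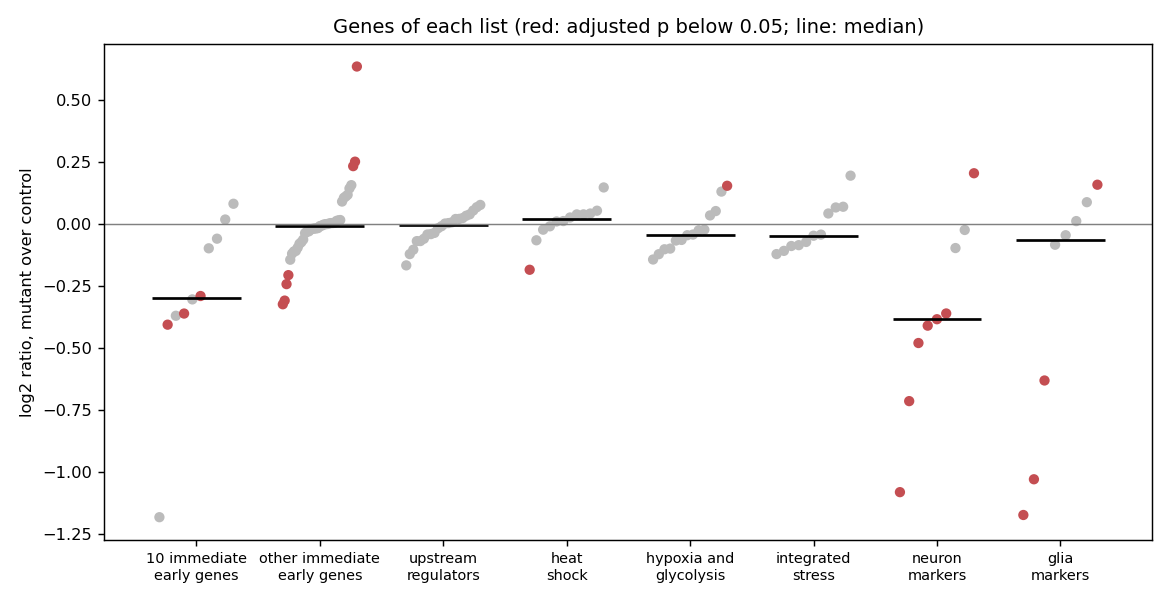
Log2 ratio of mutant over control for each tested gene of the 10 immediate early genes, of 5 related lists and of the neuron and glia markers, with genes of adjusted p below 0.05 in red and the median of each list as a line. The medians are -0.30 for the 10 genes, -0.010 for the other immediate early genes and -0.39 for the neuron markers; without array 1 they are 0.0078, -0.0078 and -0.39.

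Part of the neuron and glia markers moved with the genotype. Of 9 tested neuron markers 6 fell and 1 rose, against 2.92% and 2.26% of all genes, and the mean level of the list was 10.88 to 11.14 in the control pools and 10.58 to 10.74 in the mutant pools. *Elavl3*, an RNA-binding protein of neurons, fell by 1.08 (adjusted p = 0.000101), *Nefm*, a neurofilament subunit, by 0.72 (adjusted p = 0.000397) and *Nefl*, another, by 0.48 (adjusted p = 0.00031). Of 8 markers of glia and Schwann cell precursors 3 fell and 1 rose, against the same shares of all genes, and the list lay between 11.21 and 11.31 in the control pools and between 10.90 and 11.01 in the mutant pools. *Foxd3* fell by 1.18 (adjusted p = 6.67e-05), *Fabp7* by 1.03 (adjusted p = 5.03e-05) and *Cdh19* by 0.63 (adjusted p = 0.000459). *Fabp7* is also known from inner compartment cells of the duct itself, so it does not mark glia alone here. The part of these cells in the lower *Nr4a1*, *Egr2* and *Dusp1* was not tested.

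Epithelial markers of the duct were at 14.07 to 14.22 in the control and 14.16 to 14.34 in the mutant pools, where *Gata3* rose (log2 ratio 0.34, adjusted p = 0.00929) and *Jag1* fell by 0.19 (adjusted p = 0.0278), calls kept in 3 and in 1 of the 4 fits with an array left out. Of 8 mesenchyme markers *Col1a1* rose (log2 ratio 0.27, adjusted p = 0.00448). No marker of melanocytes (5 genes), endothelium (6), macrophages (7) or red blood cells (6) passed. With 5.18% of all genes passing, 0 or 1 in a list of this size does not set it apart. In control pool 1 the neuron list was at 11.14 and in control pool 3, read in the same dye, at 11.11. The macrophage list was at 10.22 in control pool 1, the lowest of the 8 pools.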

How the data were processed

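RNA of E14.5 cochlear ducts was measured on 4 two-colour arrays (8 pools), and groups, sexes and dyes were taken from the labels. The study hybridised 1 mutant and 1 control pool per array. Per the file headers, the deposited intensity values are the mean brightness of a spot and the median of its local background, written by Agilent Feature Extraction 10.7.3.1 and not normalized. The authors' deposited log10 ratio was not used. The deposited series values are a score, a signed fold of mutant over control whose normalization is not given in the sources used here. They correlated with the ratios computed here at 0.91 to 0.94. Probe coordinates are mm9, and those of the promoter windows are GRCm38.p6.

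Background was corrected with limma 3.58.1 in R 4.3.3 (normexp, offset 50) and ratios were normalized by loess within arrays. Spots without a flag were averaged per probe, which was tested if 4 or more of its 8 channel measurements were well above background, and the brightest probe stood for a gene. Levels came from the separate channels after Aquantile scaling. limma was fitted with genotype direction and dye as terms (2 residual and 5.65 prior degrees of freedom), with Benjamini-Hochberg adjustment over 21042 genes. Mutant and control pools are paired by hybridisation to 1 array. The study used SAM, which was not run. The number of arrays limits the precision.

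The fit was tested on simulated log2 ratios, so background correction and normalization were not part of that test. They do change fold sizes of dim genes. With a normexp offset of 10, the log2 ratio was -1.31 for *Fos* and -0.45 for *Fosb*, in place of -1.18 and -0.37. Of the 10 genes only *Atf3* moved towards 0. In the simulated ratios the fit estimated fold sizes without visible bias, though some of the smallest changes were missed. The share of false calls was near nominal when gene variances followed limma's prior. A first version of that test, with the fitted variances taken as true, exceeded the limit set for false calls. Both versions were then run with several seeds, and in the latter the share stayed above nominal, so adjusted p values near the threshold may be too small.

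The 10 genes and the lists were chosen with earlier results of these data known. Genes named are the 10, list genes that passed with a fold of at least 1.5 and the 3 largest changes per list, the 5 most similar in pattern, and *Tbx2*. Python 3.11.15 and matplotlib 3.10.9 drew the figures.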

Additional observations from a re-analysis of the deposited data

Results flagged for a closer look

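In control pool 1, *Fos* read 11.10 on the normalized log2 scale where the other control pools read 7.98 to 8.50, *Fosb* 8.60 where they read 7.20 to 7.25, and *Egr1* 13.45 where they read 12.37 to 12.5003. Each stood further from its group than Dixon's 95% limit allows. The *Fosb* ratio of array 1, -1.43 against -0.11 to 0.082 on the other arrays, did so too and contains the same pool. Mutant pool 4 was high for *Egr2* by the same measure, at 9.18 against 9.08 to 9.10, a narrow range. The *Dusp1* ratio of array 3 was 0.011 against -0.42 to -0.36. In all, 6 of 30 groups of 4 values exceeded that limit, where chance gives about 1 in 20 and the groups share pools. The *Junb* ratio was below 0 on both female arrays and above 0 on both male arrays, with a female minus male difference of -0.22, and limma's test of that difference gave an adjusted p of 1.00.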

How the results depend on the processing

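Besides leaving out arrays, 13 alternatives were fitted, 2 of which (robust variance estimates, and separate channels without control pool 1) were chosen after seeing the data. In 7 of them the ratios of the 10 genes equal those reported by construction and only the error changes. In the other 6 each of the 10 ratios kept its sign, but in separate channels without control pool 1 several were close to 0 (*Fosb* -0.010, *Egr1* -0.024, *Junb* -0.0061) and *Fos* was -0.49. *Nr4a1* passed in 12 of the 13, *Egr2* in 9, *Dusp1* in 7 and *Fos* in 1. With each array left out, the log2 ratio ranged from -1.74 to -0.62 for *Fos*, -0.75 to 0.0058 for *Fosb*, -0.060 to 0.22 for *Jun*, -0.15 to 0.028 for *Junb*, -0.62 to 0.011 for *Egr1*, -0.21 to 0.0099 for *Ier2*, -0.50 to -0.31 for *Egr2*, -0.38 to -0.35 for *Nr4a1* and -0.38 to -0.20 for *Dusp1*. The number of the 10 that passed ranged from 3 to 6. Genes with an adjusted p below 0.05 over the whole array ranged from 411 to 1278, and 1091 with all arrays.

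With Agilent's processed signals, *Dusp1* missed the threshold at -0.31, and over the whole array 49 genes were called higher, 116 lower and 577 had an adjusted p below 0.05. With robust variance estimates, *Nr4a1*, *Egr2* and *Dusp1* kept their calls (adjusted p = 0.00071, 0.011 and 0.0331). With median centring, *Fos* passed at -1.14 (adjusted p = 0.0032). With no dye term, *Egr2* at -0.41 and *Dusp1* at -0.29 missed it, 1 of the 10 passed and 264 genes passed in all. In separate channels with no replicate block, *Egr2* at -0.41 and *Dusp1* at -0.29 missed it, 1 of the 10 passed and 205 genes passed in all. With the array as replicate block, *Dusp1* missed it at -0.29. In the authors' series values, *Egr2* at -0.43 and *Dusp1* at -0.31 missed it, 1 of the 10 passed, 99 genes were called lower and 414 passed in all. In separate channels without control pool 1, *Egr2* at -0.29, *Nr4a1* at -0.34 and *Dusp1* at -0.13 missed it, 0 of the 10 passed in limma's fit, of which 3 had an unadjusted p below 0.05 against 7.42% of all genes, and over the array 17 genes were called higher, 43 lower and 115 passed in all. The cause of these changes was not tested.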
